A study of Homo sapiens with 23 samples.

Results

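C-33A, an established cervical carcinoma line without human papillomavirus, was transfected with a mimic of miR-124-3p, a synthetic double-stranded copy of that microRNA, and compared with C-33A that received a negative control, to see which transcripts changed. The 2 C-33A miR-124-3p libraries received 100 nM hsa-miR-124-3p, and the 3 C-33A control libraries received 100 nM of negative control n#1. Titles number the miR-124-3p libraries 2 and 3 and the control libraries 1, 2 and 3. Replicate 1 is thus present only among the controls, and a difference of that replicate would enter the comparison. These 5 libraries, of 23 in the series, were chosen by their group labels, and all 61217 genes of the table that compares them are covered. The other groups used were CaSki miR-124-3p (3 libraries) and CaSki control (3), from a papillomavirus-positive cervical line, and C-33A miR-23b-3p (3) and C-33A miR-218-5p (3), which were set against the same 3 C-33A controls. The labels give the same tissue, line and dose for all C-33A libraries, and they do not state that libraries were separate cultures, so p-values measure the spread between these libraries, which may be technical. For most genes checked, that spread was pooled over all listed genes, so a p-value takes little from the gene's own scatter. The sources used here do not give the time between transfection and harvest. The files used hold 1 row of statistics per gene and no values per library, so levels below are averages over all 5 libraries, and the depth of each library is unknown.

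A microRNA guides Argonaute and TNRC6 proteins to messenger RNAs whose 3' UTR pairs with its seed, the bases near its 5' end, and the paired transcripts are translated less and degraded. Sites differ in strength by how far the pairing runs and whether an A lies opposite the first microRNA base. miR-124 is abundant in neurons and scarce in most other tissues, and it is known for lowering many transcripts of non-neuronal cells, among them the splicing repressor PTBP1 and small CTD phosphatases that act with the neuronal gene repressor REST.

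The match to seed positions 2 to 8 of miR-124-3p reads GTGCCTT in the DNA letters of the transcript. A match followed by an A is an 8mer, without that A it is a 7mer-m8, a match to positions 2 to 7 with the A is a 7mer-A1, and one without it is a 6mer. Here a gene has a site if the 3' UTR of its longest coding transcript (GENCODE release 29, GRCh38) holds an 8mer or a 7mer-m8. Of the 15 coding genes with the largest falls, 14 had a site and 6 had an 8mer. The 8 8mers of these 6 genes are shown with 18 bases before and 4 after, 5′ to 3′ on the strand of the gene, because they are the best-matched sites of the largest falls. Capitals mark the 8mer. CD164 has sites at chr6:109368189-109368218 (minus strand) and chr6:109367188-109367217 (minus strand). The VAMP3 site lies at chr1:7780064-7780093 (plus strand) and the PAPSS2 site at chr10:87747549-87747578 (plus strand). MAGT1 has sites at chrX:77829054-77829083 and chrX:77826515-77826544 (both minus strand). The SERP1 site lies at chr3:150542802-150542831 (minus strand) and the POLR3G site at chr5:90513341-90513370 (plus strand). All lie in annotated 3' UTRs and none crosses a splice junction.
CD164, first site: ttgagaatataaagaacaGTGCCTTAgaag
CD164, second site: tatacttaatgttttcaaGTGCCTTAattg
VAMP3: ctgtgataacaacaggctGTGCCTTAtttt
PAPSS2: acatgagacaggattataGTGCCTTAaccg
MAGT1, first site: aaccaaagaagatgtgtaGTGCCTTAacaa
MAGT1, second site: aattagctttcatatgaaGTGCCTTAagta
SERP1: gtgctaaattcatagcagGTGCCTTAttct
POLR3G: ctgagcttggttgtttctGTGCCTTAgttt

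The labelled cell type was checked against CDKN2A and epithelial markers first. The cyclin-dependent kinase inhibitor CDKN2A, usually high in cervical carcinoma, averaged a log2 CPM of 6.99 in the authors' deposited table. The keratins KRT8 and KRT18 averaged only 0.63 and 0.65, and EPCAM -0.59, against 5.97 to 9.74 for these 3 genes in the CaSki comparison, all in the authors' deposited tables. KRT19 (-3.36) and the epithelial cadherin CDH1 (-3.05) were close to undetected in C-33A, against 9.60 and 7.85 in CaSki, in the authors' deposited tables. The defining epithelial markers are therefore absent or nearly so, and the cells are called C-33A here with no cell type attached. Of 8 fibroblast markers, 4 reached an average log2 CPM of 0, led by the collagen COL3A1 at 7.22 in the authors' deposited table. Of 5 leukocyte markers only PTPRC (2.52) did so, and of 4 endothelial markers none. None of these 23 marker genes was called as changed at FDR under 0.05 (edgeR, deposited), and their part in any result was not tested.

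With miR-124-3p, more genes fell than rose. The largest falls among coding genes were those of CD164, ATL3, NR4A3, VAMP3 and ITGB1, and the largest rises among coding genes whose average log2 CPM was 1 or above were those of MAP2K6, ZFHX2 and CASTOR2. A gene was called at a deposited edgeR FDR under 0.05. Of 61217 listed genes, 80 fell (0.131%) and 19 rose (0.031%). Expressed genes, those whose average log2 CPM was 0 or above, numbered 15466, and 80 of them fell (0.517%) and 18 rose (0.116%). The 80 falls ran from -0.69 to -1.50 on the log2 scale in the authors' deposited table, with a median of -0.90, and 24 of them were at least 1 below control. The 19 rises ran from 0.65 to 2.11 in the authors' deposited table, with a median of 0.97, and 7 were at least 1 above control. Most expressed genes stayed close to control, with a median log2 fold change near 0 (-0.0044) and a range of -0.47 to 0.49 between the 5th and 95th percentiles. The standard error (SE) of each fold change was recovered from the deposited F score and had a median of 0.184 among the falls and 0.201 among the rises. For most genes checked, this SE rests on the pooled spread and not on the scatter of that gene alone.

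**Figure D1:**
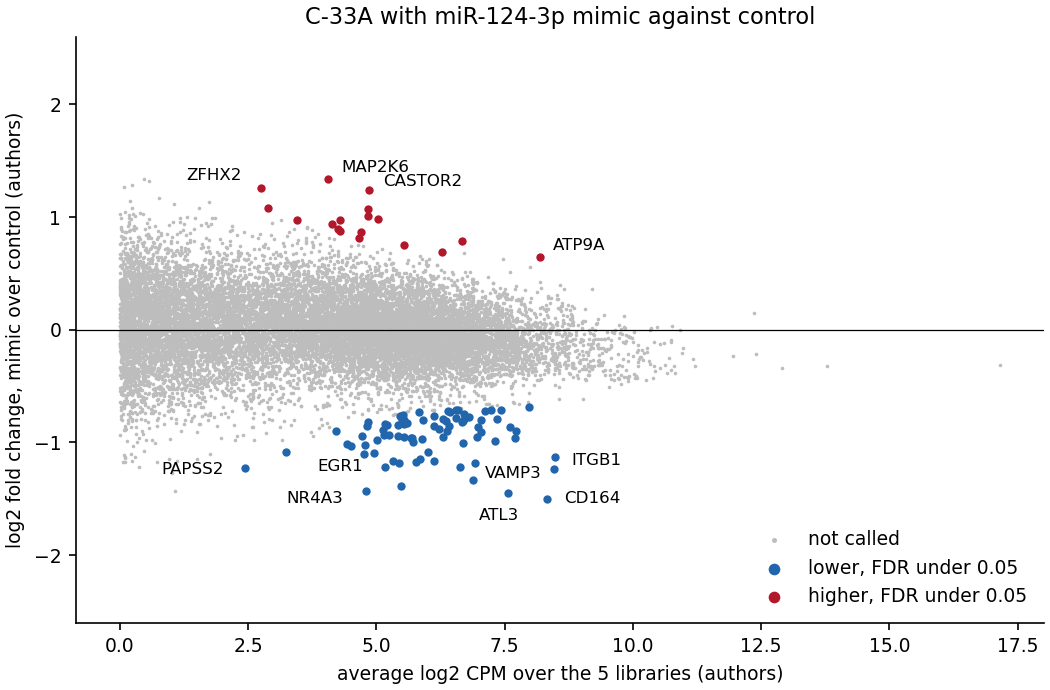
Log2 fold change of C-33A miR-124-3p over C-33A control (vertical axis) against the average log2 CPM over the 5 libraries (horizontal axis) for the 15466 expressed genes, with the 80 falls in blue, 18 of the 19 rises in red and all other genes in grey. Falls lie at average log2 CPM between 2.44 and 8.48, and the rise left out is PRR36, just under the level of 0.

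Vesicles, endosomes and lysosomes gave 10 falls, 7 of them with a site. The role groups used in these paragraphs were made after the values were seen and serve as description only. The gene lists were chosen with results of these data known, so their counts are descriptions too. Each such count is to be read against all expressed genes, of which 0.517% fell and 0.116% rose. At these shares a list of this size would hold few calls or none. A single call or an absence of calls is therefore not read as a result about a list. Site counts of the role groups stand against the 76.9% of all falls with an annotated 3' UTR that had a site. The largest fall of all was CD164, a sialomucin of endosomes and the cell surface, at -1.50 in the authors' deposited table (recovered SE 0.175, edgeR adjusted p = 8.12e-13), with 2 8mers. VAMP3, a SNARE protein of recycling endosomes, fell by 1.33 in the authors' deposited table (recovered SE 0.179, edgeR adjusted p = 1.91e-09) and carries 1 8mer and 2 further matches to positions 2 to 8. SLC17A5, which exports sialic acid from lysosomes, fell by 1.18, SYPL1, a relative of synaptophysin, by 1.16, and the proton pump subunit ATP6V0E1 by 1.14 in the authors' deposited table. ATP6V0E1 was the only one of the 15 largest coding falls without a site: its 3' UTR holds a 7mer-A1, and its coding sequence holds a match to positions 2 to 8. The Golgi SNARE STX10 (-0.99), the clathrin adaptor partner NECAP2 (-0.95), the endosomal protein LITAF (-0.94), SYNGR2 (-0.94) and the GTPase RAB34 (-0.79) fell too in the authors' deposited table. No other member of the lists for these machineries was called: of 28 expressed SNARE genes only VAMP3 and STX10 were called and the median was -0.08, and of 27 lysosomal membrane and proton pump genes only CD164 and ATP6V0E1 were called, also with a median of -0.08.

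The endoplasmic reticulum and Golgi gave 11 falls, 10 of them with a site. ATL3, an atlastin that shapes tubules of the endoplasmic reticulum, fell by 1.45 in the authors' deposited table (recovered SE 0.177, edgeR adjusted p = 7.79e-12), and its 3' UTR holds 5 matches to positions 2 to 8, all 7mer-m8. MAGT1, a magnesium transporter and subunit of the oligosaccharyltransferase, fell by 1.22, and SERP1, which stabilises membrane proteins at the translocon, by 1.18 in the authors' deposited table. Each carries the 8mers shown above. B4GALT1, the galactosyltransferase of the Golgi, fell by 1.11, SUMF1, the activator of sulfatases, by 1.02, and GXYLT1, a xylosyltransferase that acts on Notch, by 1.00 in the authors' deposited table. The chaperone DNAJC1 (-0.89), the tubule protein REEP3 (-0.80), the zinc transporter SLC30A7 (-0.78), the thiol oxidase QSOX1 (-0.75) and the mannosidase MAN2A1 (-0.71) completed the group in the authors' deposited table, and only MAN2A1 had no site. Of 22 expressed genes of endoplasmic reticulum shape and membrane, 3 fell (ATL3, SERP1, REEP3) and none rose, with a median of 0.07. Of 30 N-glycosylation genes, MAGT1 and B4GALT1 fell and none rose, with a median of -0.14. Over all expressed genes, 0.517% fell and 0.116% rose.

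Adhesion, matrix and cytoskeleton genes gave 9 falls, 7 with a site. ITGB1, the beta subunit shared by many integrins, fell by 1.24 in the authors' deposited table (recovered SE 0.173, edgeR adjusted p = 1.34e-08) and has 2 sites of the 7mer-m8 kind. Its pseudogene ITGB1P1 stood at -1.38 at an average log2 CPM of 5.49, against 8.47 for ITGB1, in the authors' deposited table, and reads of the pair may have been split between them. The basement membrane protein NID1 (-0.96, 2 8mers), the tetraspanin CD151 (-0.71), the scaffold IQGAP1 (-0.82), the actin regulator WASF2 (-0.73) and the intermediate filament VIM (-0.72) fell in the authors' deposited table. ANXA5 (-0.88) and the secreted protease inhibitor TFPI2 (-0.72) fell without a site in the authors' deposited table. The matricellular growth factor CCN2 (-0.86) fell and has 1 site. Of 15 expressed integrin and laminin genes, only ITGB1 was called and the median was 0.10. The laminin chain LAMC1, a published target, stood at -0.64 (unadjusted p = 2.58e-04, edgeR adjusted p = 0.112) in the authors' deposited table. VIM was the only call among 13 expressed genes of epithelial-mesenchymal transition (median -0.05).

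Growth-response transcription factors, taken with the transcription cofactor ANKRD1, gave 6 falls, 3 with a site. NR4A3, an orphan nuclear receptor, fell by 1.43 (recovered SE 0.212, edgeR adjusted p = 1.41e-07) and EGR1, an immediate early zinc finger factor, by 1.22 (recovered SE 0.202, edgeR adjusted p = 5.85e-06) in the authors' deposited table, and each has 1 site. The ETS repressor ELK3 (-0.85) has 1 site, while JUN (-0.82), ANKRD1 (-0.77) and the zinc finger factor KLF10 (-0.77) have none, in the authors' deposited table and the annotation used here. The immediate early list held 18 expressed members, of which EGR1, CCN2 and JUN fell and none rose, where 0.517% of all expressed genes fell. The median of these 18 was -0.48, with 17 below 0 and 6 holding a site, against a median of -0.0044 over all expressed genes. FOS stood at -0.98 (unadjusted p = 0.00208) and JUNB at -0.68 (unadjusted p = 0.00292) in the authors' deposited table, and neither passed the adjusted threshold (edgeR adjusted p = 0.478 and 0.574). Among 26 expressed RAS-MAPK and feedback genes, 0 were called, 9 were lower and 0 higher at unadjusted p under 0.05 (background 5.43% and 4.14% of expressed genes), and the median was -0.23. NRAS came closest, at -0.66 (recovered SE 0.171, edgeR adjusted p = 0.0663), in the authors' deposited table.

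Metabolic and cell cycle transcripts made up smaller groups. Lipid genes gave 5 falls: the sphingomyelin synthase SGMS2 (-1.18), the fatty acid isomerase ECI2 (-1.09), the mitochondrial beta-oxidation subunit HADHB (-0.96), the ceramide synthase CERS2 (-0.95) and the acyltransferase LCLAT1 (-0.85) in the authors' deposited table, of which only HADHB had no site. PAPSS2, which makes the sulfate donor of the cell, fell by 1.23 in the authors' deposited table with a wide recovered SE of 0.309 (edgeR adjusted p = 0.0448) at the lowest level of all falls. The sulfate transporter SLC26A2 (-0.81), the lactate transporter SLC16A1 (-0.90), the sugar transporter SLC50A1 (-0.84) and the nucleotide enzyme PRPS1 (-0.79) fell in the authors' deposited table. SLC16A1 was the only call among 24 expressed glycolysis and lactate transport genes (median -0.01). CCND2, a D-type cyclin with 1 8mer, fell by 1.03 (recovered SE 0.215, edgeR adjusted p = 0.0025), and SKP2, the ligase subunit that targets p27, by 0.86 in the authors' deposited table. The DNA repair genes SHLD2 (-0.90), MAD2L2 (-0.85) and DDIAS (-0.85) fell too in the authors' deposited table. CDK6 stood at -1.27 with a recovered SE of 0.414 and CDK4 at -0.56 in the authors' deposited table, and neither passed (edgeR adjusted p = 0.486 and 0.348). Of 17 expressed genes of the D-cyclin, CDK4/6 and RB list only CCND2 was called (median -0.20), and no gene was called among 25 of G1/S and DNA replication (median -0.18) or 31 of G2/M and spindle (median 0.01).

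RNA-related falls were POLR3G, a subunit of RNA polymerase III (-1.16), UHMK1, a kinase that acts on splicing factors (-1.13), the splicing regulator PTBP3 (-0.90) and the ribosome assembly factor NIP7 (-0.81) in the authors' deposited table, all with a site. PTBP3 and CTDSP1, a small CTD phosphatase with 4 sites (-0.93 in the authors' deposited table), were the calls among 16 expressed genes of the PTB, REST and CTD phosphatase list, whose median was 0.08. Over all expressed genes, 0.517% fell. PTBP1 itself stood at -0.43 (unadjusted p = 0.0107) and PTBP2, the form found in neurons, at 0.66 (unadjusted p = 2.31e-04, edgeR adjusted p = 0.104) in the authors' deposited table. Of 28 neuronal genes, 14 were expressed and 0 were called, with 1 lower and 1 higher at unadjusted p under 0.05 and a median of 0.18. TRIB3, a pseudokinase induced by stress, fell by 1.01 in the authors' deposited table and was the only call among 25 expressed genes of the integrated stress response (median -0.15). Falls outside these groups included TWSG1, a regulator of bone morphogenetic proteins with 2 sites (-1.08), the cytokine IL18 (-0.83, no site), the TWEAK receptor TNFRSF12A (-0.78, no site) and the prelamin protease ZMPSTE24 (-0.75, 1 site) in the authors' deposited table.

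Of 52 genes published as miR-124-3p targets, 45 were expressed, and 11 of these fell and none rose, where 0.517% of all expressed genes fell. The median of the 45 was -0.47, and 40 lay below 0. The 11 were CD164, ATL3, VAMP3, ITGB1, MAGT1, SERP1, ATP6V0E1, B4GALT1, CTDSP1, SLC16A1 and IQGAP1, and 10 of them have a site. The list was put together with results of these data known, so its count is not independent evidence of direction. Not called among them, besides CDK6, CDK4, LAMC1 and PTBP1, were PLOD3 (-0.83), STAT3 (-0.55), MAPK14 (-0.54) and ROCK1 (-0.47), all at unadjusted p under 0.05 in the authors' deposited table.

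All 19 genes that rose were protein coding, most of them with long, GC-rich transcripts. MAP2K6, a kinase that activates p38, rose by 1.34 in the authors' deposited table (recovered SE 0.219, edgeR adjusted p = 4.46e-06) and was the only call among 17 expressed p38 and JNK kinase genes (median -0.02). CASTOR2, a relative of the arginine sensor of mTORC1, rose by 1.24 in the authors' deposited table (recovered SE 0.198, edgeR adjusted p = 2.42e-06) and was the only call among 34 mTOR genes (median 0.05). ZFHX2, a zinc finger homeobox factor, rose by 1.26, and PGM2L1, which makes glucose bisphosphate in brain, by 1.07 in the authors' deposited table. A pair of rises belong to microRNA silencing itself. TNRC6C, an Argonaute partner, rose by 0.93, and ANKRD52, a subunit of the phosphatase that resets Argonaute, by 0.79 in the authors' deposited table. They were the only calls among 33 small RNA genes (median 0.08), where 0.116% of all expressed genes rose. The bicarbonate transporter SLC4A8 (1.01), the membrane skeleton protein EPB41L1 (0.98) and the growth cone protein DPYSL5 (0.75), all known from neurons, rose in the authors' deposited table, as did the repressors CIC (0.86) and HIC2 (0.88). In the neuronal list, 0 of 14 expressed genes were called. SLC45A4 (1.08), SBK1 (0.98), PRR12 (0.97), KIAA0513 (0.89), the endocytic receptor LRP1 (0.82), PRRC2B (0.69) and the flippase ATP9A (0.65) make up the rest in the authors' deposited table, with PRR36 at 2.11 (recovered SE 0.504) at an average log2 CPM of -0.0043.

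**Figure D2:**
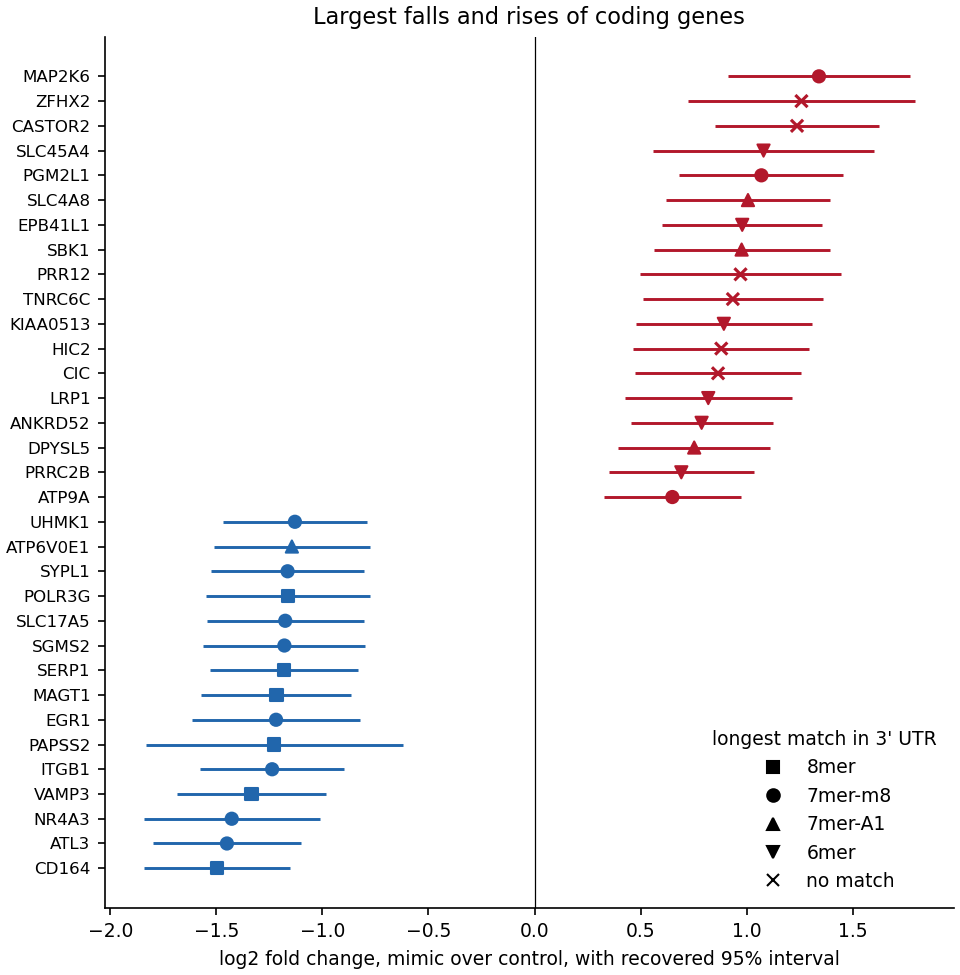
Log2 fold change of C-33A miR-124-3p over C-33A control with the recovered 95% interval for the 18 rises and 15 largest falls among coding genes whose average log2 CPM was 1 or above, with marker shape giving the longest match found in the 3' UTR. All 15 falls carry a square, circle or upward triangle (8mer, 7mer-m8 or 7mer-A1), while 3 of the rises carry a circle and none a square.

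Fewer rises passed once trends with transcript length or base composition were subtracted. Their median transcript was 8106 bases with 57.6% GC, against 3345.5 bases and 44.0% GC for the falls and 3560 bases and 47.9% GC for all expressed genes with a 3' UTR. Over those genes the median log2 fold change was -0.21 for transcripts under 1000 bases and 0.07 for those over 8000 bases, and -0.12 in the lowest and 0.14 in the highest of 5 equal groups by GC share. With a running median over length subtracted, 11 genes rose, 10 of them among the 19. With one over GC share subtracted, an alternative chosen after seeing the data, 9 rose, 8 of them among the 19. The 8 rises called in all 3 forms were MAP2K6, ZFHX2, CASTOR2, PGM2L1, SLC4A8, EPB41L1, TNRC6C and ANKRD52. After the length trend 85 genes were lower, 72 of them among the 80 falls, and after the GC trend 73 were lower, 61 of them among the 80. The 9 rises that did not pass after the length trend had a median of 0.86 before it and 0.79 after it, with adjusted p from 0.0516 to 0.186. The 11 that did not pass after the GC trend had 0.88 before and 0.78 after, with adjusted p from 0.0662 to 0.318. PRR12 stood at 0.92 after the length trend (adjusted p = 0.0707) and LRP1 at 0.74 (adjusted p = 0.112). The 8 falls that did not pass after the length trend had a median of -0.82 before and -0.70 after, and VIM among them stood at -0.67 (adjusted p = 0.0875). The 19 that did not pass after the GC trend had -0.80 before and -0.68 after. Among these PAPSS2 stood at -1.20 (adjusted p = 0.0671), KLF10 at -0.76 (adjusted p = 0.0527) and ELK3 at -0.80 (adjusted p = 0.0698). The cause of these trends was not tested.

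Ribosomal protein genes, whose transcripts are short (median 1171 bases), lay below 0 in 52 of 53 cases with a median of -0.31, though 0 were called. At unadjusted p under 0.05, 18 of the 53 were lower and 0 higher, against 5.43% and 4.14% of expressed genes. The lowest unadjusted p among them was that of RPL37, at -0.44 (p = 0.00775, edgeR adjusted p = 0.909), in the authors' deposited table. No gene was called in 5 further lists, whose medians were -0.21 (13 p53 targets), 0.28 (11 interferon response genes), -0.07 (18 cholesterol genes), -0.08 (14 BCL2 family genes) and -0.04 (13 mitochondrially encoded genes). STARD4, a sterol carrier of the cholesterol list, stood at -0.72 (edgeR adjusted p = 0.0663) in the authors' deposited table. Of 18 epithelial, 10 fibroblast, 10 leukocyte and 8 endothelial list genes, 4, 4, 1 and 0 were expressed and 0 were called.

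**Figure D3:**
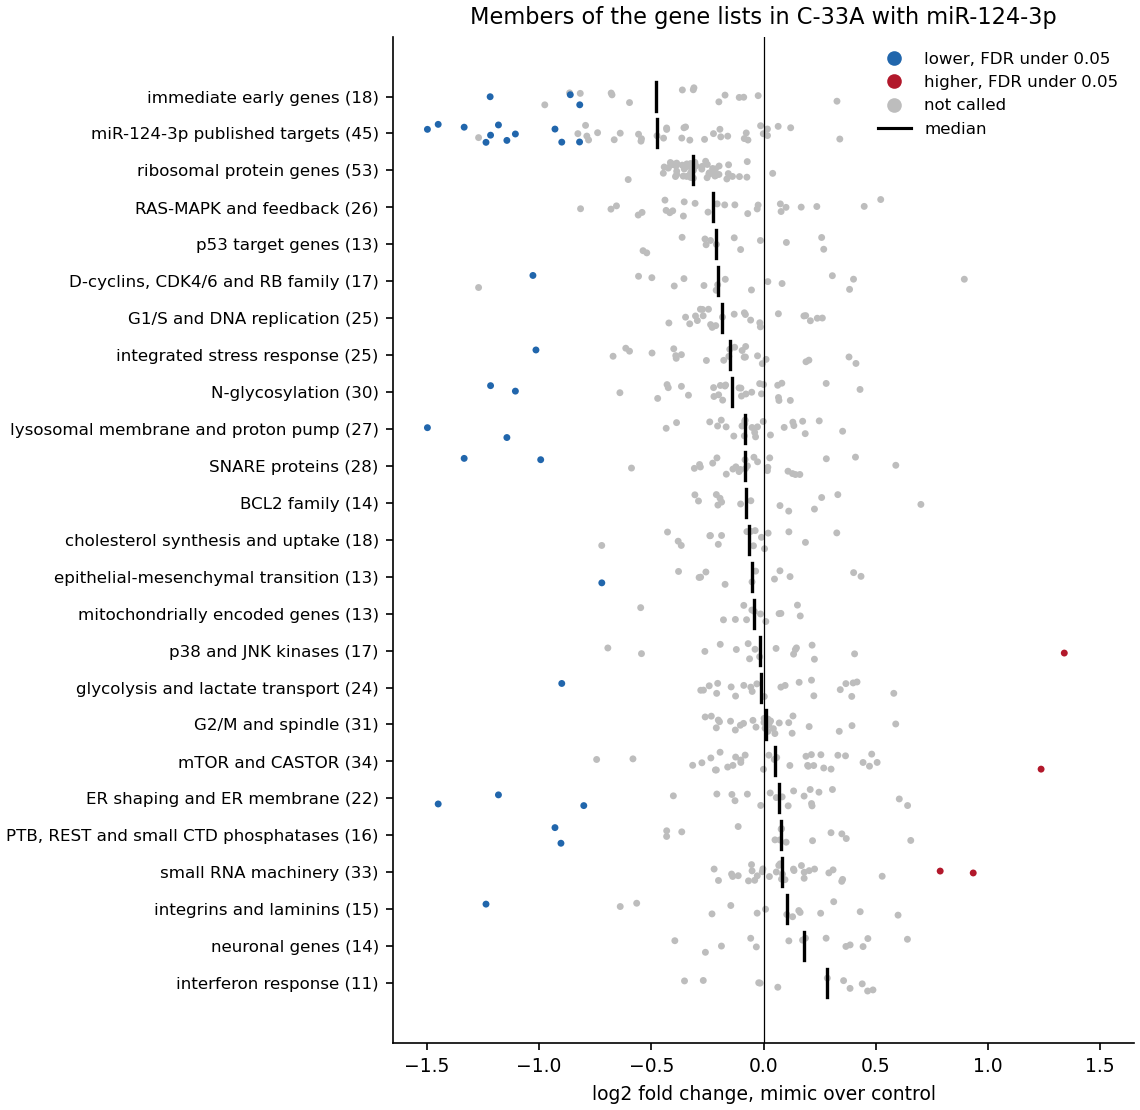
Log2 fold change of C-33A miR-124-3p over C-33A control for each expressed member of 25 gene lists with 5 or more such members (number in brackets), with falls in blue, rises in red, other members in grey and the list median as a black bar. Immediate early genes and published targets have the lowest medians (-0.48 and -0.47), and in most lists the called members stand apart from a bulk near 0.

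Sites marked most falls, while the rises had them at about the share of other expressed genes. Of the 78 falls with an annotated 3' UTR, 60 had a site (76.9%, exact 95% binomial interval 66.0% to 85.7%) and 27 an 8mer (34.6%), against 16.5% with a site and 3.34% with an 8mer among other expressed genes with a 3' UTR. Intervals cover counting error only. Of the 19 rises, 3 had a site (15.8%, interval 3.38% to 39.6%). Of the 60 falls with a site, 20 had 2 or more matches, among them ATL3 with 5, CTDSP1 with 4 and LRRC58 with 3 8mers. Of the 18 coding falls without one, 6 had a 7mer-A1, 2 a 6mer and 10 none. Only 3 of these 18 (ATP6V0E1, KLF10, TMEM263) had a match to positions 2 to 8 in the coding sequence, and 0 had one in the 5' UTR or in the longest annotated 3' UTR of the gene.

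Over all 11519 expressed genes with a 3' UTR, the log2 fold change was lowest for genes with an 8mer, next lowest for those with a 7mer-m8, and near 0 in the other classes. The median was -0.19 for 409 genes with an 8mer, -0.07 for 1540 with a 7mer-m8, -0.01 for 1075 with a 7mer-A1, 0.04 for 2847 with a 6mer and 0.01 for 5648 with none. Of the 8mer genes 72.6% lay below 0 and 6.60% fell, of the 7mer-m8 genes 59.3% and 2.14%, and of the genes with none 49.3% and 0.177%. No 8mer gene rose, but only 0.156% of all 11519 genes did, so nothing is read from that absence. The number of matches ran the same way, with medians of 0.01, -0.08, -0.13 and -0.18 for 0, 1, 2 and 3 or more matches, and 0.188%, 2.48%, 5.07% and 9.52% of genes called lower. Genes share libraries and are not replicates, so these medians are descriptions.

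**Figure D4:**
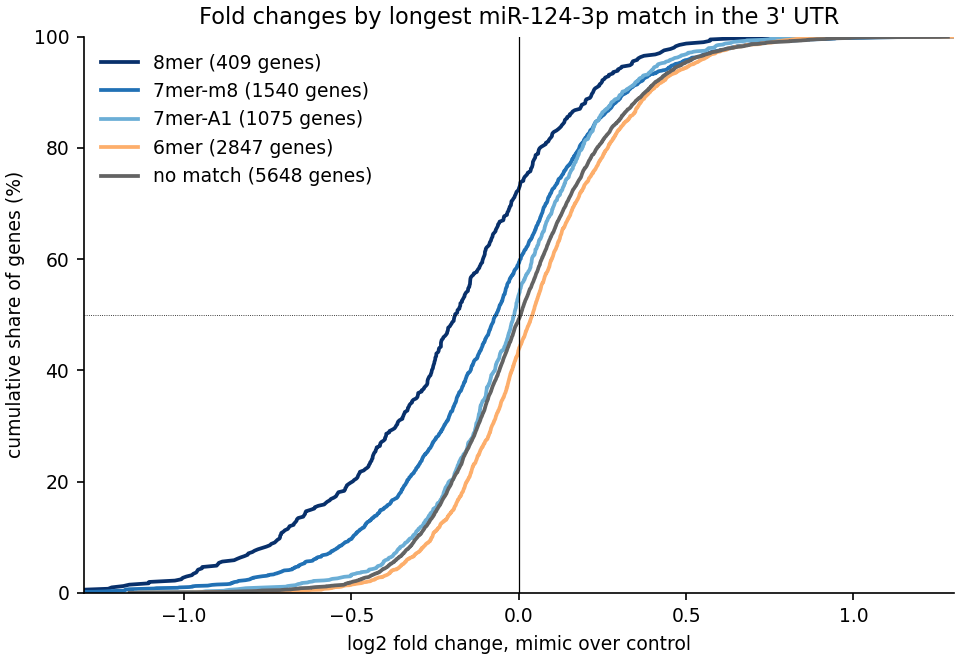
Cumulative share of expressed genes (vertical axis, percent) by log2 fold change of C-33A miR-124-3p over C-33A control (horizontal axis), with 1 line per class of longest match in the 3' UTR. At 0, the 8mer line has reached 72.6% and the 7mer-m8 line 59.3%, against 49.3% for genes with none of these matches.

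All 16384 words of 7 bases were then ranked by the share of falls whose 3' UTR holds the word minus that share among other expressed genes. GTGCCTT ranked 1, with 76.9% against 16.5%, and the 4 words ranked next are shifted copies that overlap it. Matches to the seeds of the other microRNAs of the series did not stand out among the falls. AATGTGA, for miR-23b-3p, was held by 26.9% of the falls against 21.6% of other genes (rank 1886), and AAGCACA, for miR-218-5p, by 16.7% against 15.9% (rank 6237).

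Among the 1610 genes with exactly 1 match, the log2 fold change varied with the surroundings of the match. Split into 3 equal groups by the A and U share of the 30 bases on either side, the medians were 0.01, -0.08 and -0.19 for low, middle and high shares, with 5, 13 and 22 genes called lower. Split by distance to the nearer end of the 3' UTR, they were -0.15, -0.08 and -0.04 for near, middle and far matches, with 23, 13 and 4 called lower. The length of the 3' UTR limits this distance. By that length, the medians were -0.11, -0.11 and -0.04 for short, middle and long 3' UTRs, with 24, 10 and 6 called lower. Genes without a match over the same ranges had medians of 0.004, 0.037 and 0.041. The part of 3' UTR length in the distance result was not tested. By average level, the medians were 0.01, -0.08 and -0.16 for low, middle and high genes, against 0.10, 0.01 and -0.06 for genes without a match over the same ranges. By the GC share of the whole transcript, the medians were -0.17, -0.08 and 0.03 for low, middle and high shares. Genes without a match over the same ranges had -0.08, -0.01 and 0.13. How far this GC share moves with the A and U share was not measured. The part of GC share in the A and U result was not tested.

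Most falls had the same sign in CaSki, where the same microRNA was tested in a separate set of libraries. There 0.203% of the listed genes fell and 0.103% rose. Of the 80 C-33A falls, 43 were among the CaSki falls, which is 53.8% of the C-33A list and 34.7% of the CaSki list. Of the 19 rises, 6 were shared (31.6% and 9.52%): MAP2K6, CASTOR2, PGM2L1, SLC4A8, ANKRD52 and ATP9A. No gene was called in opposite directions. VAMP3 stood at -1.33 in C-33A and -1.41 in CaSki, ATL3 at -1.45 and -1.34, and CD164 at -1.50 and -1.10, in the authors' deposited tables. In all, 75 of the 80 falls lay below 0 in CaSki and 16 of the 19 rises above 0, and 63 of the 80 falls were nearer to 0 in CaSki. The falls were chosen by their C-33A values, so nothing is read from that last count. Falls with a site had a CaSki median of -0.71, with 57 of 60 below 0 and 36 called, and the 18 coding falls without one had -0.59, with 16 below 0 and 7 called.

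**Figure D5:**
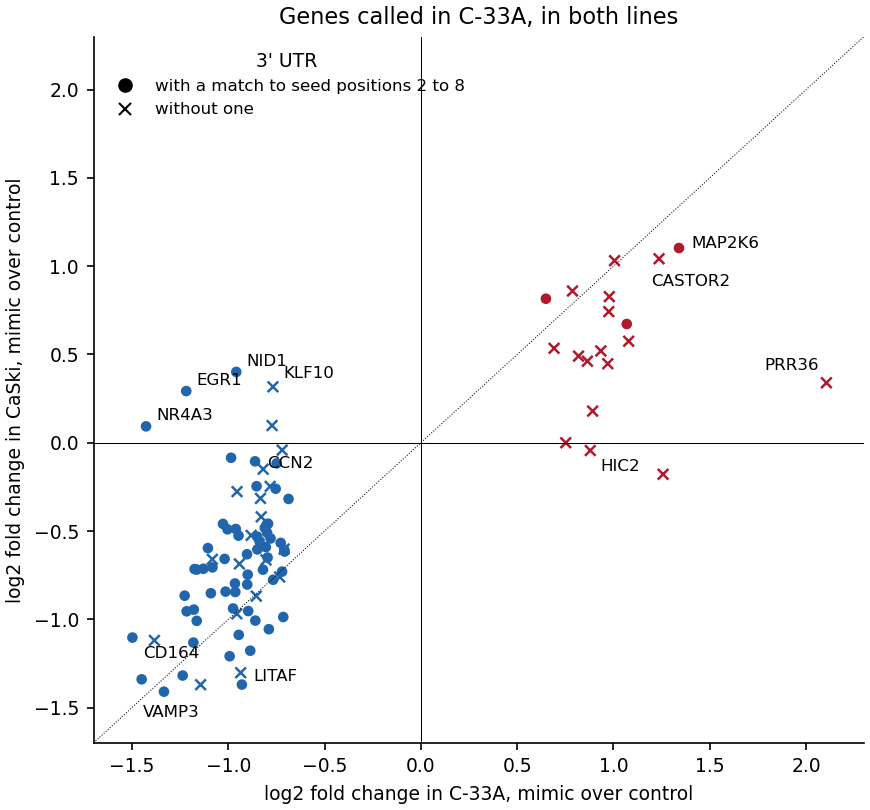
Log2 fold change of miR-124-3p over control in C-33A (horizontal axis) and in CaSki (vertical axis) for the genes called in C-33A, with falls in blue, rises in red, circles for genes with a site, crosses for genes without one and a dotted line where the values are equal. Most falls lie below 0 in both lines, while NR4A3, EGR1, NID1, KLF10 and ANKRD1 lie above 0 in CaSki. None of these was called there, and NR4A3, EGR1 and NID1 averaged under 0 log2 CPM in CaSki. Their CaSki values in the authors' deposited table were 0.09 (recovered SE 0.44), 0.29 (0.51), 0.40 (0.45), 0.32 (0.31) and 0.10 (0.25) in that order.

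No gene differed between the lines after adjustment, which does not show that the lines responded alike. The difference of the log2 fold changes was tested for 12970 genes expressed in both comparisons, by a normal test with recovered SEs. At adjusted p under 0.05 there were 0 genes, and at unadjusted p under 0.05 there were 364 (2.81%). That share is below the threshold of 0.05 itself, so the test ran conservatively with these SEs. The cause of this was not tested. The lowest adjusted p, 0.0709, belonged to RHOB (-0.37 in C-33A, 0.62 in CaSki) and DIO2 (-0.33 and 1.12), neither called in C-33A, in the authors' deposited tables. Of the 99 called genes 92 could be tested, and 14 had an unadjusted p under 0.05, though these genes too were chosen by their C-33A values. The 6 with the lowest p had C-33A minus CaSki differences of 0.92 ± 0.283 (SE) for HIC2, -1.09 ± 0.367 for KLF10, -0.63 ± 0.215 for ZMPSTE24, -0.87 ± 0.303 for ANKRD1, -0.67 ± 0.241 for JUN and 0.71 ± 0.262 for KIAA0513, none past adjustment. EGR1, NR4A3 and NID1 could not be tested because they averaged under 0 log2 CPM in CaSki. The immediate early list had a CaSki median of -0.10, and the ribosomal protein list one of -0.37. The C-33A statistics rest on a spread pooled over all genes and those of CaSki do not, so the SEs of the lines were not formed alike.

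The 3 microRNAs tested in C-33A share their control libraries, so a control value that stands apart would enter each comparison. Their values are therefore given side by side, with no measure of likeness. The 80 falls had a median of -0.02 with miR-23b-3p, where 2 were called, and of -0.08 with miR-218-5p, where 0 were called. The calls with miR-23b-3p were TRIB3, which rose by 1.32 there, and ENSG00000287001, which fell by 0.96 there, in the authors' deposited tables. These stand against 0.031% of all genes lower and 0.0163% higher with miR-23b-3p, and 0.0686% lower and 0.00653% higher with miR-218-5p. The 19 rises had medians of 0.40 and 0.22 with miR-23b-3p and miR-218-5p, and CASTOR2 was called as higher with both, at 0.85 and 0.83 in the authors' deposited tables. Set against the mean of the other microRNAs, where the control libraries cancel, the falls had a median of -0.87 and ran from -1.82 to -0.21. The rises had a median of 0.57 in that form, running from 0.24 to 1.35. The genes were chosen by the same miR-124-3p libraries, so nothing is read from these signs. In bulk RNA, fewer cells of a kind and less RNA per cell cannot be told apart.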

How the data were processed

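PolyA-enriched RNA of C-33A cells was sequenced. Per the submitters' processing notes, the tools were edgeR 3.36.0, STAR 2.7.10b, FastQC 0.73 and featureCounts 2.0.3 and the build was GRCh38 (hg38), with no role or order given. The sources used here do not give the strand setting of counting, and reads of antisense or overlapping genes cannot be told apart. Per the file headers, the authors' deposited tables give 5 values for each of 61217 genes: log2 fold change, average log2 CPM, F score, p-value and FDR. The FDR differed by at most 4.64e-14 from p adjusted after Benjamini-Hochberg across the whole table. For 79.0% of 2919 genes with F over 3, the deposited p-value follows from F with 183651 denominator degrees of freedom, within a relative difference of 1e-06. These degrees of freedom are 3 per listed gene. For the other genes with F over 3 the deposited p-value is larger.

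No values per sample were used, so the planned count fit was replaced by the deposited statistics. SE was the absolute log2 fold change divided by the square root of F. Of the listed genes 57038 matched GENCODE release 29 by name, and 19038 had a 3' UTR in their longest coding transcript. Running medians covered 501 genes. Members, gene lists and tests were chosen with earlier results of these data known. Named were the 15 largest falls and all rises among coding genes whose average log2 CPM was 1 or above, other called genes by role, called and low-p list members, published targets and the lowest p-values between lines. The result of 1 gene list is not reported here. Scripts (Python 3.11.15, pandas 2.3.3, scipy 1.17.1) were tested on simulated data.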

Additional observations from a re-analysis of the deposited data

How the results depend on the processing

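No sign reversed, but many of these settings could not have reversed one, so nothing is read from this. Counts of genes have no sign. The length and GC trends subtracted lay between -0.239 and 0.188, while the smallest called changes were 0.65 and -0.69. Falls numbered 80, and 51 at FDR under 0.01, 24 with an absolute log2 fold change of 1 or more, 32 by Bonferroni adjustment, 136 adjusted only over genes whose average log2 CPM was 0 or above and 145 only over those at 1 or above. Rises numbered 19, and 8, 7, 5, 39 and 45 under the same settings, 30 at FDR under 0.10, 11 without the length trend and 9 without the GC trend. The share of falls with a site was 34.6% for 8mers, 87.2% for 6mers and longer and 87.8% at FDR under 0.01. The median of genes with a site minus that of genes without was -0.101. It was -0.193 for 8mers, -0.0145 for 6mers and longer, -0.0997 with the longest 3' UTR, -0.105 for genes at an average log2 CPM of at least 2, -0.0693 with no filter, -0.142 without the length trend, -0.128 as the median over 5 groups by 3' UTR length and -0.0868 without the GC trend. Between lines, 364 genes differed at unadjusted p under 0.05, and 0 did after adjustment at an average log2 CPM of at least 2 or with SEs from the normal quantile of p. Of the 99 called genes, 82 passed without the length trend and 69 without the GC trend. GC and normal-quantile alternatives were chosen after seeing the data. Apart from the thresholds and the genes adjusted over, the cause of these shifts was not tested. No paired analysis was possible because no values per sample were used, and leaving out single libraries was not possible for the same reason.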
